A study of Mus musculus with 2 samples.

Results

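Actins, troponins and tropomyosins of the sarcomere's thin filament were followed in hearts of mice that lacked the deacetylase Sirt1 in their cardiomyocytes and in control hearts, under caloric restriction (CR) or free feeding (ad libitum, AL). Of the 9 genes chosen by name, 8 were measured, each by 1 probe: Acta1, Acta2, Tpm1, Tpm2, Tnnt2, Tnni3, Tnni1 and Tnnc1. They belong to 16390 genes named on the array, and the brightest probe stood for a gene with several. No probe carried the symbol or an older name of Actc1, cardiac actin, in the platform annotation, so Actc1 was not analysed here.

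Total RNA of whole hearts was hybridised to 2 two-colour arrays. The knockout array held RNA from a CR and an AL heart of cardiomyocyte-specific Sirt1 knockout mice, 1 heart each, and the control array likewise from control mice. All 4 mice were males of 6 months on a C57BL/6J background, fed for 3 months either freely or with 40% less food. On both arrays the CR heart was labelled with Cy3 and the AL heart with Cy5, with no dye swap. The sources used here give neither the promoter behind the cardiomyocyte deletion nor the alleles of the control mice. Each condition was 1 heart, so diet and dye, or genotype and array, cannot be told apart, and no value has a replicate SD or a p-value: every difference describes these hearts.

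The thin filament is a polymer of actin with tropomyosin lying along it and a troponin complex at regular steps. Calcium binds troponin C, troponin I then releases its hold on actin, and troponin T passes the change to tropomyosin, which uncovers the sites where myosin attaches. Adult mouse cardiomyocytes use mainly cardiac actin, cardiac troponins and the tropomyosin of Tpm1, whereas Acta1 (skeletal actin) and Tnni1 (slow skeletal troponin I) belong to the developing heart, and Acta1 is a classical gene of the hypertrophied adult ventricle.

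The probe for Sirt1 had a log2 signal of 7.51 (CR) and 7.07 (AL) in knockout hearts, against 7.53 (CR) and 7.11 (AL) in control hearts. Its position relative to the deleted part is not known here, and hearts hold other cells than cardiomyocytes, so these values do not check the genotype. All 11 cardiomyocyte markers on the array, among them Myl2, Myh6 and Ttn, were detected in all 4 hearts. The atrial myosin light chains stood apart between the arrays. Myl7 had a log2 signal of 6.26 (CR) and 6.31 (AL) in knockout hearts, against 10.32 (CR) and 10.26 (AL) in control hearts. In whole-heart RNA, fewer cells of a type and less RNA per cell cannot be told apart. As a measure of spot noise, 24 spots of each of 2 positive controls had SDs of up to 0.088 (knockout array) and 0.058 (control array) in log2 CR over AL. The means of the 2 controls, however, were -0.78 and -0.26 on the knockout array, -0.09 and -0.44 on the control array, and -0.68 and 0.18 in the difference of the responses, so the SDs understate how far a control probe can lie from 0. Between the arrays their SDs were up to 0.155 (CR) and 0.176 (AL), and their means ran from -0.28 to -0.25 (CR) and from -0.43 to 0.40 (AL). These spots do not measure the spread between mice.

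All 8 genes were detected in all 4 hearts, that is, their spots exceeded the mean of 2736 blank spots by 2 SD. Acta1 was the member that differed most. It was higher in the knockout hearts under both diets, and lower with CR on the knockout array but higher with CR on the control array. The other 7 members stayed within 1.5-fold in each comparison in the main setting, to which values belong unless another is named. Among them Tpm1 was lower with CR on both arrays. The cardiac troponins Tnnt2 and Tnni3 stayed within 0.28 on the log2 scale in each comparison. Tnnc1 reached 0.37 for CR over AL on the control array and -0.44 in the difference of the responses. With the brightness around each spot subtracted, Tnnt2 was higher in the knockout heart by 3.26 (AL) and 2.51 (CR).

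**Figure D1:**
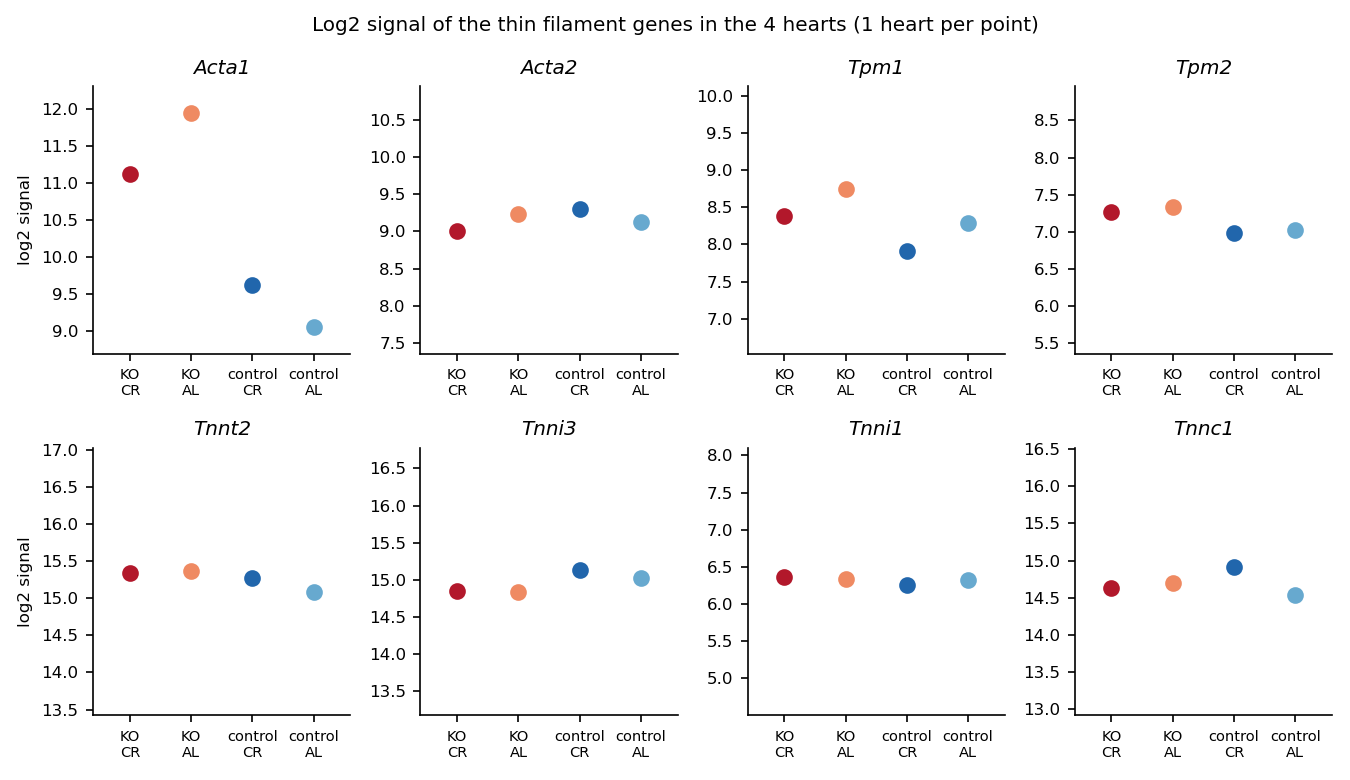
Log2 signal of the 8 measured genes (vertical axes, each spanning the same number of log2 units) in the knockout CR, knockout AL, control CR and control AL heart, 1 heart per point. Acta1 peaks at 11.94 in the knockout AL heart, against 9.07 in its control, and no other gene spans more than 0.83.

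Acta1 had spot signals of 2127 (CR) and 3253 (AL) scanner units in the knockout hearts, against 928 (CR) and 495 (AL) in the control hearts. After normalization these were log2 signals of 11.12 (CR) and 11.94 (AL), against 9.63 (CR) and 9.07 (AL). Both knockout hearts thus lay above both control hearts, and the order of the diets was opposite in the genotypes. The difference between the genotypes was 2.87 (7.33-fold) in AL hearts, which placed Acta1 at rank 3 of 12783 genes compared. In CR hearts it was 1.5 (2.82-fold), at rank 12 of 11957. Acta1 was the only member at least 1.5-fold higher in the knockout heart, 1 of 8 under either diet. Across all genes compared, 2.59% were at least 1.5-fold higher in AL hearts and 1.44% in CR hearts. None of the 8 was at least 1.5-fold lower, against 1.77% of all genes in AL hearts and 1.06% in CR hearts.

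The response to restriction differed in sign for Acta1. CR over AL was -0.82 on the knockout array, which is 1.76-fold lower, at rank 27 from the bottom of 12142 genes. It was 0.56 on the control array, which is 1.47-fold higher, at rank 128 from the top of 12658 genes. The knockout response minus the control response was -1.38, at rank 6 from the bottom of 11698 genes, a value from which any dye effect common to the arrays cancels. On the knockout array 0.758% of genes were at least 1.5-fold lower, in the difference 0.513%, and Acta1 was the only such member in both. No member was at least 1.5-fold higher in either, against 0.758% of genes on the knockout array and 0.376% in the difference. On the control array none of the 8 passed 1.5-fold, where 0.814% of all genes were higher by that much and 0.34% lower. These comparisons share hearts: each heart enters 1 comparison of genotypes and 1 of diets, so the 4 values of a gene are not separate observations.

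**Figure D2:**
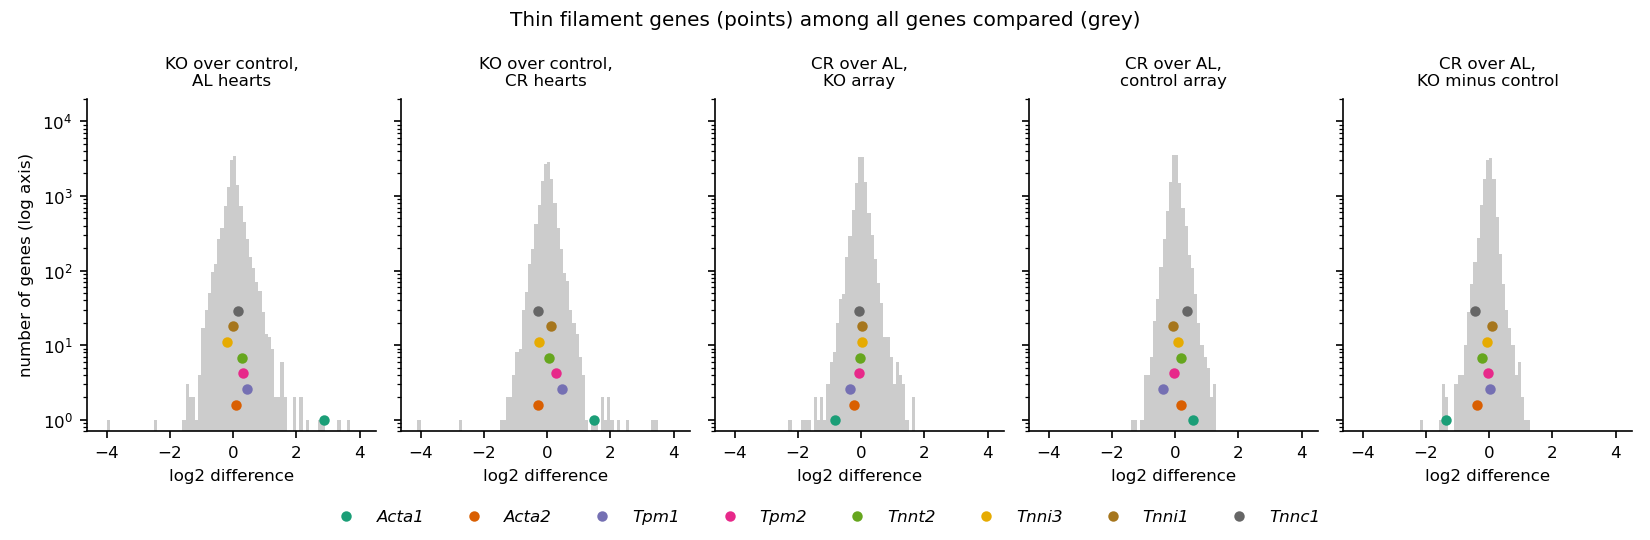
Log2 differences of all genes compared (grey histograms, log axis of gene number) and of the 8 members (coloured points, whose height carries no value) in 5 comparisons. Acta1 lies at 2.87 and 1.5 between the genotypes and at -1.38 in the difference of the responses, and no other member passes 1.5-fold.

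Acta1 is transcribed in heart and skeletal muscle through serum response factor, which binds CArG boxes, and TEAD factors, which bind MCAT motifs. The 250 bases before its start in RefSeq (GRCm38.p6, minus strand, chr8:123894776-123895025) are shown because Acta1 carries the main difference between these hearts. The same window is shown for Acta2 (minus strand, chr19:34255374-34255623) and for Tpm1 (minus strand, chr9:67049214-67049463). Acta2 was among the other members whose responses differed in sign, and Tpm1 was lower with CR on both arrays. Capitals mark the CArG box (searched in its strict form, with A or T at its 6 inner bases), the MCAT core, spelled CATTCC, and the TATA motif, spelled TATAAA. Each was searched on both strands, and the MCAT core lies on the other strand in Acta2 and Tpm1, where it is written as its reverse complement.
Acta1: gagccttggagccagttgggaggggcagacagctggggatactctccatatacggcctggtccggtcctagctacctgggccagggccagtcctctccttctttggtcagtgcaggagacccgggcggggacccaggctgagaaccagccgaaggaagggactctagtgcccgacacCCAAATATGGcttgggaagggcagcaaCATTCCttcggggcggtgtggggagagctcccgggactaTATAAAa
Acta2: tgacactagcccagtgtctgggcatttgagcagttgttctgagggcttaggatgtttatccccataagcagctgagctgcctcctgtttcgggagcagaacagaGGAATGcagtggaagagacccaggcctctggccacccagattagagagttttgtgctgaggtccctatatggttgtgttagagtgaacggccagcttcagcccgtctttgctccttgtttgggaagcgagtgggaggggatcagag
Tpm1: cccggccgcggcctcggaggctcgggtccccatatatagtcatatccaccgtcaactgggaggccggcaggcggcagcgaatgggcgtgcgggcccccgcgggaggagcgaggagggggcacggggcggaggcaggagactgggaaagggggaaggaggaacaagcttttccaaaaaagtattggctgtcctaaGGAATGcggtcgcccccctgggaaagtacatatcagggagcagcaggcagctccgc
In the Acta1 window the CArG box lay 73 to 64 bases before the start, the MCAT core 46 to 41 bases and the TATA motif 7 to 2 bases before it. None of these motifs overlapped another. Of the motifs as searched, the windows of Acta2 and Tpm1 held the MCAT core only, 146 to 141 and 56 to 51 bases before the start. Near matches to the CArG box, with a G or C among the 6 inner bases, were not counted. Such stretches were ccctatatgg and ccttgtttgg in the Acta2 window and ccatatacgg in the Acta1 window. Of 32851 windows of that length in the RefSeq table, 1.47% held the strict CArG box, 12.6% the MCAT core and 12.4% the TATA motif. RefSeq windows were found for all 9 genes, the MCAT core also occurred in those of Tnnt2 and Tnnc1, and a strict CArG box in that of Actc1, 47 to 38 bases before the start. A match describes letters, not binding.

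Markers of other muscle were compared beside Acta1. Of 13 skeletal muscle markers, 12 were on the array. Their summed signal was 1004 (CR) and 960 (AL) in knockout hearts, against 892 (CR) and 874 (AL) in control hearts, in linear normalized units. Of the 12, 11 (CR) and 11 (AL) were detected in knockout hearts, against 8 (CR) and 10 (AL) in control hearts. The sums include the offset of 50 that the background model adds to each probe. That offset also makes the differences of dim probes smaller. None of these markers passed 1.5-fold in any comparison in the main setting. With the brightness around each spot subtracted some did between the genotypes, in both directions. Casq1 was at 1.92 (AL) and 1.93 (CR), Tnni2 at 1.71 and 1.70, and Pvalb at -2.18 and -1.79. In that setting 33.1% of all genes were at least 1.5-fold higher in AL hearts and 27.4% lower. The fast myosin Myh1 was detected in no heart, and no marker exceeded a log2 signal of 7.17 (Mybpc2, knockout CR heart). Of 9 genes known from the fetal programme of hypertrophy, 4 were at least 1.5-fold higher in the knockout AL heart and 3 in the knockout CR heart (median differences 0.47 and 0.51), where 2.59% and 1.44% of all genes were. The gene of the slow heavy chain of myosin, Myh7, was higher by 2.11 (AL) and 2.20 (CR). The natriuretic peptide genes Nppa (0.99 and 1.95) and Nppb (1.06 and 0.68) were past 1.5-fold under both diets. Myh6, the adult myosin heavy chain, was past it in AL hearts at 1.53. It falls rather than rises in that programme, so the counts and medians of the list do not describe 1 direction of it. With the brightness around each spot subtracted, Nppb turned to -0.73 (AL) and -1.24 (CR). Nppa is also an atrial gene. Of the atrial markers compared, 6 of 7 were lower in the knockout AL heart (median -0.13) and 5 of 6 in the knockout CR heart (median -0.33). Across all genes 52.5% and 50.9% were higher. At least 1.5-fold lower were 3 of 7 (AL) and 2 of 6 (CR), against 1.77% and 1.06% of all genes. Myl7 was the lowest of them, at -3.95 (AL) and -4.06 (CR). Whether the amount of atrium in each sample took part in these differences was not tested.

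Across the 4 hearts, the genes whose pattern was most like that of Acta1 were Gh (growth hormone), Rtp4 (a chaperone of membrane receptors) and Xlr3b (an X-linked gene expressed in lymphocytes), out of 8024 genes at or above the median signal. Likeness was the Euclidean distance between log2 signals centred on each gene's mean, and the distances were 0.57, 0.75 and 0.78 over 4 channels. Their knockout over control differences were 2.16 (AL) and 1.84 (CR) for Gh, 2.73 and 2.54 for Rtp4, and 2.31 and 0.86 for Xlr3b. The diet responses of Acta1, -0.82 on the knockout array and 0.56 on the control array, were matched less closely. CR over AL was -0.37 and -0.05 for Gh, -0.11 and 0.09 for Rtp4, and -1.35 and 0.09 for Xlr3b. No other member spanned 1 log2 unit, so likeness was sought for Acta1 alone.

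Acta2 encodes the actin of vascular smooth muscle and of myofibroblasts. Its spot signals were 535 (CR) and 529 (AL) in knockout hearts, against 748 (CR) and 518 (AL) in control hearts. Log2 signals were 9.01 (CR) and 9.23 (AL) in knockout hearts, against 9.30 (CR) and 9.13 (AL) in control hearts. After normalization the control CR heart was the highest and the knockout CR heart the lowest, and the genotypes overlapped. CR over AL was -0.22 on the knockout array and 0.18 on the control array. The difference of the responses, -0.39, lay within the lowest 5% of all genes (below -0.29), but it turned to 0.45 with the brightness around each spot subtracted. Knockout over control was 0.10 in AL hearts and -0.29 in CR hearts, and in that setting -1.35 and -0.90.

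Of 13 markers of smooth muscle and pericytes, 12 were on the array, and their summed signal was 3089 (CR) and 2936 (AL) in knockout hearts, against 2278 (CR) and 2058 (AL) in control hearts. These sums, too, include the offset of 50 for each probe. In AL hearts 10 of 12 were higher in the knockout heart (median 0.09), where 52.5% of all genes were. In CR hearts 8 of 11 were higher (median 0.10), where 50.9% of all genes were. The pericyte gene Rgs5 (1.23 in AL and 0.95 in CR hearts) and Smtn, smoothelin (1.22 and 0.90), were the markers past 1.5-fold. They were 2 of 12 (AL) and 2 of 11 (CR), where 2.59% and 1.44% of all genes were higher by that much. With the brightness around each spot subtracted Rgs5 turned to -1.57 (AL) and -1.47 (CR), and Smtn was at 0.10 (AL) and turned to -1.70 (CR). Myh11, the smooth muscle myosin, was close to the detection floor with log2 signals from 5.98 to 6.13. The part of these cells in the values of Acta2 was not tested.

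Tpm1, the main tropomyosin of the mouse ventricle, had spot signals of 355 (CR) and 380 (AL) in knockout hearts, against 288 (CR) and 271 (AL) in control hearts. Log2 signals were 8.39 (CR) and 8.75 (AL) in knockout hearts, against 7.92 (CR) and 8.29 (AL) in control hearts. Within each genotype the CR heart was the lower, and within each diet the knockout heart was the higher. CR over AL was -0.36 on the knockout array (rank 378 from the bottom of 12142) and -0.38 on the control array (rank 253 from the bottom of 12658), and the responses differed by 0.02. Knockout over control was 0.46 in AL hearts and 0.47 in CR hearts, within the highest 5% of all genes (above 0.43 and 0.35). With the brightness around each spot subtracted the response on the knockout array was -0.04. The Tpm1 probe was brighter than 86.7% of genes, against 99.96% for the Tnnt2 probe. Which transcripts of Tpm1 the probe binds was not tested.

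Tpm2 encodes beta tropomyosin, which is more abundant in slow skeletal and smooth muscle. Its log2 signals were 7.27 (CR) and 7.34 (AL) in knockout hearts, against 6.99 (CR) and 7.03 (AL) in control hearts. Both knockout hearts were above both control hearts, by 0.31 (AL) and 0.28 (CR). With an offset of 0 in the background model these differences were 0.47 (AL) and 0.45 (CR). With the brightness around each spot subtracted they were 0.93 (AL) and 1.04 (CR), past 1.5-fold. CR over AL was -0.07 on the knockout array and -0.04 on the control array, and in that setting -0.48 and -0.59.

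The troponins of the adult heart had signals near the upper end of the scanner's range. Tnnt2, cardiac troponin T, had spot signals of 42473 (CR) and 36475 (AL) in knockout hearts, against 44801 (CR) and 36688 (AL) in control hearts. At most 7 of 23473 probes were brighter in a channel, and neither Tnnt2 nor another member reached the scanner's limit. Its log2 signals were 15.33 (CR) and 15.37 (AL) in knockout hearts, against 15.27 (CR) and 15.09 (AL) in control hearts. The control AL heart was the lowest, and the 4 values spanned 0.28. Knockout over control was 0.28 in AL hearts and 0.06 in CR hearts. CR over AL was -0.04 on the knockout array and 0.18 on the control array, whereas the authors' deposited table gave 0.07 and -0.07.

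Tnni3, cardiac troponin I, had log2 signals of 14.86 (CR) and 14.84 (AL) in knockout hearts, against 15.13 (CR) and 15.02 (AL) in control hearts. It was the only member lower in the knockout heart under both diets, at -0.19 (AL) and -0.27 (CR), a direction that turned with the brightness around each spot subtracted, to 0.46 and 0.20. The CR hearts and AL hearts were near each other, with CR over AL at 0.02 on the knockout array and 0.10 on the control array. In the authors' deposited table CR over AL was 0.12 on the knockout array and -0.15 on the control array.

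Tnnc1, cardiac and slow troponin C, which binds calcium, had log2 signals of 14.63 (CR) and 14.69 (AL) in knockout hearts, against 14.91 (CR) and 14.54 (AL) in control hearts. The control CR heart was the highest. CR over AL was -0.07 on the knockout array and 0.37 on the control array, a difference of -0.44 that was within the lowest 5% of all genes. That difference rested on how the array was normalized. With loess within blocks of the array the control value was -0.01 and the difference -0.06, and in the authors' deposited table the control value was 0.13 and the difference -0.10. Knockout over control was 0.16 in AL hearts and -0.28 in CR hearts.

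Tnni1, slow skeletal troponin I, which the heart uses before birth, was near the detection floor. Its spot signals were 102.5 (CR) and 58.3 (AL) in knockout hearts, against 99.2 (CR) and 54.9 (AL) in control hearts. Blank spots averaged 75.6 (CR) and 34.9 (AL) on the knockout array, and 74.9 (CR) and 32.5 (AL) on the control array. Log2 signals were 6.36 (CR) and 6.33 (AL), against 6.25 (CR) and 6.32 (AL), and no comparison exceeded 0.11. The dim signal limits what could be seen of Tnni1. With an offset of 0 in the background model the genotypes differed by 0.29 in CR hearts and 0.01 in AL hearts.

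The brightness around a spot was a large share of the spot itself and differed between the arrays. For Tnnt2 it was 35.0% (CR) and 32.9% (AL) of the spot on the knockout array, against 85.9% (CR) and 89.9% (AL) on the control array. For Tnnc1 it was 21.0% and 24.8%, against 49.3% and 51.1%, and for Tnni3 27.0% and 20.1%, against 46.5% and 45.6%. For Acta1 the shares were closer, 65.6% and 67.7% against 58.4% and 55.6%. Subtracting it moved the cardiac troponins in the comparison of genotypes. Tnnt2 was then higher in the knockout heart by 3.26 (AL) and 2.51 (CR), Tnnc1 by 0.99 and 0.51, and Tnni3 turned to 0.46 and 0.20. Acta1 was at 2.76 (AL) and 1.36 (CR), and its responses were -0.74 on the knockout array and 0.65 on the control array. In that setting 33.1% of all genes were at least 1.5-fold higher in the knockout AL heart and 27.4% at least 1.5-fold lower.

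**Figure D3:**
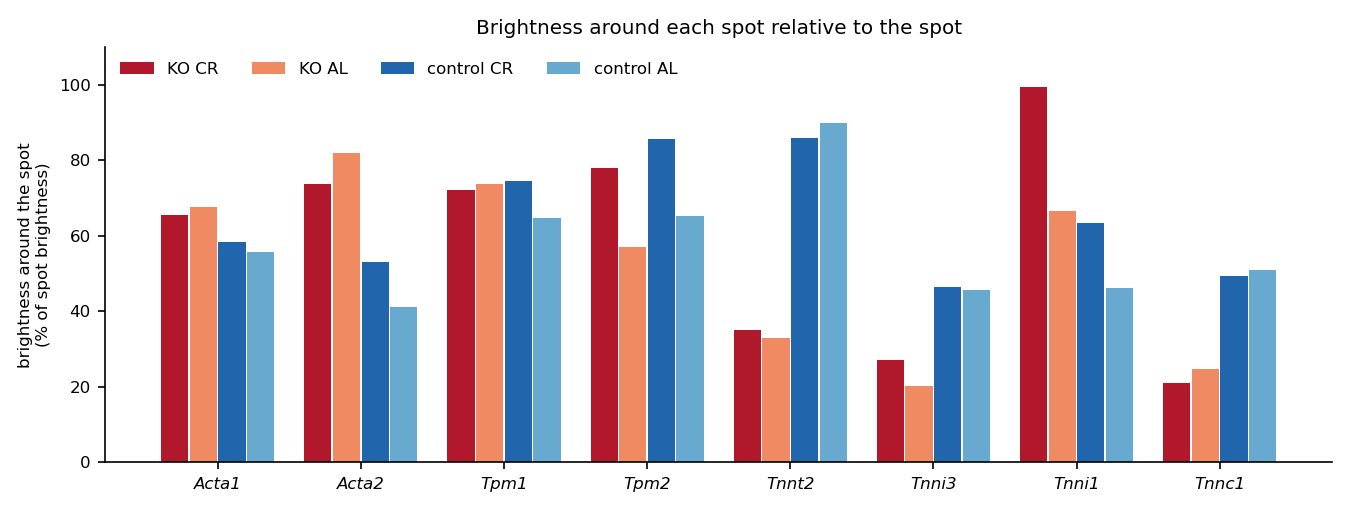
Brightness around the spot as a percentage of the spot's own brightness (vertical axis) for the 8 genes in the knockout CR, knockout AL, control CR and control AL channels. For Tnnt2 the knockout bars are at 35.0 and 32.9% and the control bars at 85.9 and 89.9%.

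**Figure D4:**
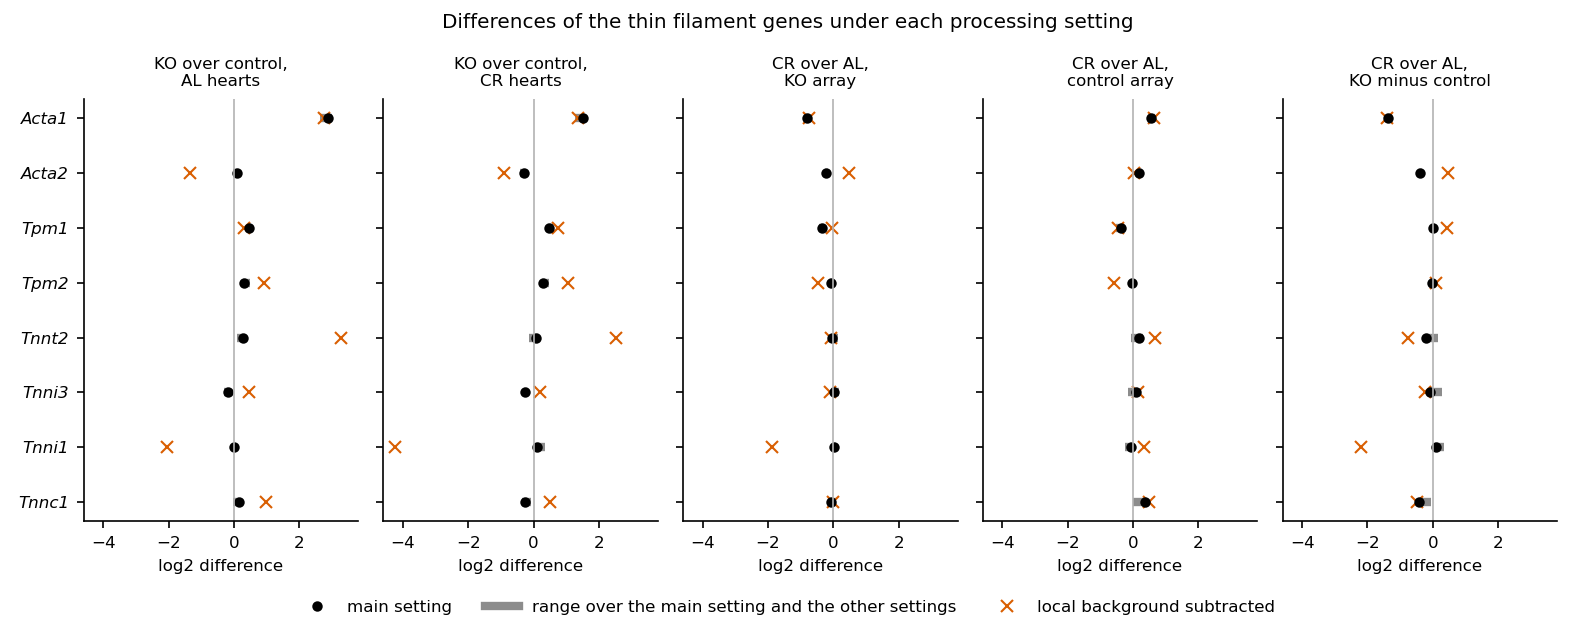
Log2 differences of the 8 genes (horizontal axes) in 5 comparisons: black points are the main setting, grey bars the range over it and the other settings, and crosses the values with local background subtracted. The crosses stay near the points for Acta1 and move furthest for Tnnt2 and Tnni1 between the genotypes, to 3.26 for Tnnt2 in AL hearts and -4.25 for Tnni1 in CR hearts.

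Taking the 8 genes as a list, 7 were higher in the knockout AL heart (median 0.22, against 0.01 for all genes, of which 52.5% were higher). In the knockout CR heart 5 were higher (median 0.09), where 50.9% of all genes were. With CR, 2 of 8 were higher on the knockout array (median -0.07) and 5 of 8 on the control array (median 0.14). Across all genes 50.1% and 51.4% were. Since these 8 were chosen by name and most differences are small, the counts describe the hearts and were not tested.

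Genes that cap, lengthen or turn over the thin filament included several that were higher with CR on both arrays. Of 20 such genes, 16 could be compared. With CR 13 of them were higher on the knockout array (median 0.16) and 11 on the control array (median 0.19). Across all genes compared, 50.1% and 51.4% were higher. At least 1.5-fold higher were 3 of 16 on the knockout array and 4 of 16 on the control array, where 0.758% and 0.814% of all genes were. Nebl, nebulette, which lies along the filament near the Z-disc, was at 0.56 on the knockout array and 0.98 on the control array. Nrap, a nebulin-related anchoring protein of filament assembly, was at 0.67 and 0.74. Lmod2, leiomodin, which lengthens filaments at the pointed end, was at 0.69 and 0.64, and Cap2, which takes part in actin turnover, at 0.62 and 0.68. With the brightness around each spot subtracted Nebl was at 0.89 and 1.67, Nrap at 1.01 and 1.02, and Lmod2 at 0.56 and 1.15. In that setting Cap2 was at 0.76 on the control array and had no value on the knockout array. Wdr1, a cofactor of filament disassembly, was the lowest on both arrays, at -0.33 and -0.20. Both dyes ran the same way, so a dye bias of these probes cannot be told apart from diet here.

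Between the genotypes, 11 of these 16 were higher in the knockout AL heart and 12 in the knockout CR heart (medians 0.40 and 0.30). Across all genes 52.5% and 50.9% were higher. In AL hearts Nrap (0.77), Tmod1, the pointed-end cap of the filament (0.68), and Nebl (0.63) were past 1.5-fold, and in CR hearts Nrap at 0.70, where 2.59% (AL) and 1.44% (CR) of all genes were higher by that much. With the brightness around each spot subtracted Nrap was at 0.95 and 0.94, Tmod1 at 1.48 and 0.94, and Nebl at 0.41 (AL) and -0.37 (CR). Tmod4, a tropomodulin of skeletal muscle, was lower at -0.85 (AL) and -0.87 (CR), and was the only gene of the list at least 1.5-fold lower, against 1.77% and 1.06% of all genes.

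Among the other isoforms, 8 of 9 genes were on the array. The cytoplasmic actin Actb was lower with CR at -0.83 on the knockout array and -0.48 on the control array, and its second probe was at -0.80 and -0.17. With the brightness around each spot subtracted its brighter probe was at -0.23 on the control array and had no value on the knockout array. Tpm3, a slow and non-muscle tropomyosin, was at -0.75 and -0.26, but its second probe was at -0.22 and 0.27, so the probes disagree in direction on the control array. Tnnt1, slow troponin T, was at 0.45 and 0.25. Actb and Tpm3 are expressed in many cell types of the heart. Under CR 50.1% of all genes had higher values on the knockout array and 51.4% on the control array. Of 9 fibroblast markers 8 had lower values under CR on the knockout array and 5 on the control array (medians -0.18 and -0.11). The part of these cells was not tested. Probe sequences were not used here, so shared hybridisation between the near-identical actins, or between tropomyosins, was not tested either.

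**Figure D5:**
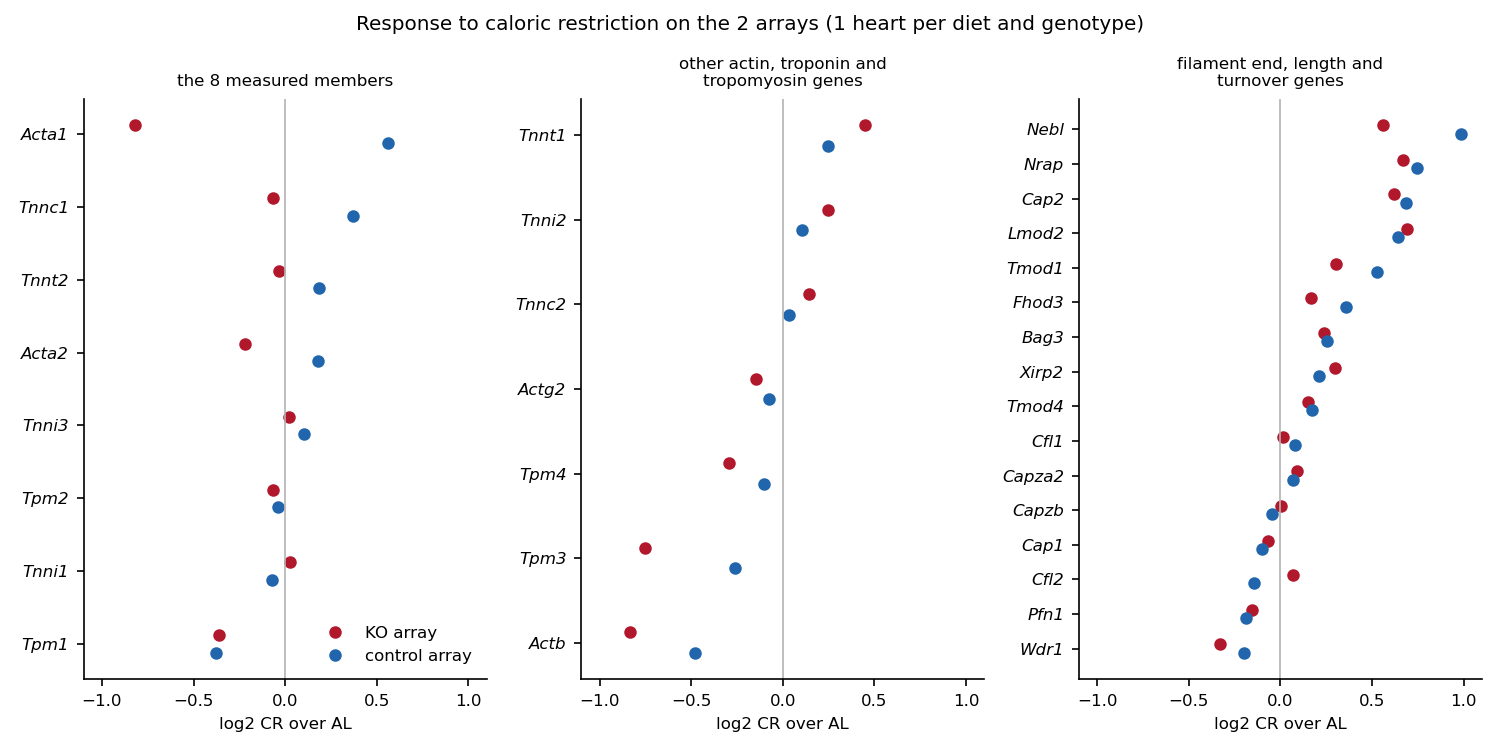
Log2 CR over AL (horizontal axes) of the 8 members, the other isoforms and the end, length and turnover genes that were detected in all 4 hearts, on the knockout array (red) and the control array (blue), 1 heart per diet and genotype. Nebl, Nrap, Cap2 and Lmod2 lie above 0.55 on both arrays, whereas Acta1 lies at -0.82 on the knockout array and at 0.56 on the control array.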

How the data were processed

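The authors' deposited scanner files give a spot intensity at 635 and 532 nm, and an intensity around it, each a median; the file headers give line fits between 3 scanner gains. The authors' deposited table holds log2 ratios that the labels call normalized, and CR stands over AL in them. Scanner software is not given in the sources used here. Here, spot intensities were corrected with normexp (offset 50) without the local background and normalized by loess (span 0.3) in limma 3.58.1 (R 4.3.3), with control spots at weight 0. Channels were compared between arrays after Aquantile. Detection required 2 SD above the mean of blank spots, trimmed by 5% at each end. Differences are log2 values, called past 1.5-fold. With 1 heart a group, no test was run. On simulated data the normalization was tested for the ratios within an array only, not for the comparison of channels between arrays. Of 23473 probes, 16631 had 1 symbol, updated through RefSeq names (GRCm38.p6). Members and lists were chosen with earlier results of these data known. Named genes were all members and up to 4 of each list with the largest difference. For members that span 1 log2 unit, the 3 genes of the most similar pattern were added. A few others were singled out after their values were seen (Sirt1, Myh1, Myh11, Wdr1, Srf, Tead1, Myocd, Mrtfa, Casq1, Tnni2 and Pvalb).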

Additional observations from a re-analysis of the deposited data

Results flagged for a closer look

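Acta1 responded to restriction in opposite directions on the arrays, at -0.82 on the knockout array and 0.56 on the control array, a difference of -1.38. Acta2 did so as well, at -0.22 and 0.18, a difference of -0.39. Opposite signs were not particular to these genes. Tnnc1 was at -0.07 and 0.37, a difference of -0.44, Tnnt2 at -0.035 and 0.18, and Tnni1 at 0.03 and -0.07. Each array held 1 heart per diet, and no difference was tested. All settings kept the signs of Acta1 on both arrays, whereas Acta2 was at 0.49 on the knockout array and 0.04 on the control array with the local background subtracted.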

How the results depend on the processing

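Of the counts of members past 1.5-fold, those that moved did so with the local background subtracted, with 1 exception. In that setting 4 members were higher and 2 lower in the knockout heart under AL, and likewise 4 and 2 under CR, in place of 1 and 0, while 33.1% of all genes were higher and 27.4% lower under AL, and 36.9% and 30.9% under CR. With CR, 2 members were lower on the knockout array in place of 1 (17.6% of all genes), and on the control array 2 were higher and 1 lower in place of 0 and 0 (9.88% and 18.5% of all genes). In the difference of the responses 3 were lower in place of 1 (18.99% of all genes). With median centring in place of loess, 1 member (Acta1, at 0.66) was higher on the control array in place of 0 (1.65% of all genes). Over all settings Acta1 ran from 2.64 to 3.00 between the genotypes in AL hearts, from 1.27 to 1.58 in CR hearts, and from -1.43 to -1.32 in the difference of the responses. With the local background subtracted 31 of 40 values of single members moved by more than the spot SD, and with the blank mean subtracted, a setting added after seeing the data, 6 of 40 did. Median centring moved 12 of 40, loess within blocks 8 of 40 and an offset of 0 moved 5 of 40. In the authors' deposited table, which holds CR over AL only, 14 values moved and 10 did not. Median scaling in place of Aquantile, used for the genotype comparisons only, moved 4 values and left 12. No paired analysis was possible because each group held 1 heart. Dim signal over background limits Tnni1, and 1 heart a group limits all values. The causes of these moves were not tested.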

Other observations

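Transcription factors that act on sarcomere genes were listed beside the members. Of 13 such genes 10 could be compared. With CR 6 were higher on the knockout array (median 0.01) and 6 on the control array (median 0.04). Across all genes 50.1% and 51.4% were. Gata6, a zinc finger factor of heart muscle, was at 0.67 on the knockout array, where 0.758% of all genes were at least 1.5-fold higher. It was the only gene of the list past 1.5-fold in any of the 5 comparisons. In these, the share of all genes past it in a direction ran from 0.34% to 2.59%. Gata6 was at 0.35 on the control array, or -0.15 with the local background subtracted. Srf, serum response factor, which binds the CArG boxes of actin genes, was at -0.03 on the knockout array and -0.26 on the control array, and at 0.13 (CR) and -0.10 (AL) for knockout over control. Its coactivators Myocd and Mrtfa were near the detection floor, with log2 signals from 5.99 to 6.13. Tead1, a factor that binds MCAT motifs, was at 0.35 in AL hearts and 0.08 in CR hearts for knockout over control. With the local background subtracted Tead1 turned to -1.15 and -0.74, and Srf was at 1.5 (CR) and 0.94 (AL).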
